A study of Rattus norvegicus with 12 samples.

Results

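The disease-associated microglia genes Trem2, Tyrobp, Apoe, Lpl, Cst7, Gpnmb, Spp1, Axl, Cd9 and Lgals3 were followed in the retinas of 12 rats, 1 total RNA library per rat. The members are the rows of the deposited gene table that carry 1 of these 10 names, and all 10 names were found once among 30560 genes. The control group was 6 rats injected into the vitreous of the eye with 2 µL of PBS, a saline buffer, and the treated group was 6 rats injected with 2 µL of 20 mM NMDA, named here PBS 1 to PBS 6 and NMDA 1 to NMDA 6 after their labels. NMDA activates a class of glutamate receptors and injures retinal neurons by overstimulation, and the series title calls the animals a glaucoma model. For strain, age, sex, litter and the time between injection and collection the sources used here gave nothing.

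Microglia are the resident phagocytes of the retina and brain. Near dying neurons, plaques or damaged myelin they lower genes of their resting state and raise a set of genes for lipid uptake, lysosomes and phagocytosis, known as the disease-associated or neurodegenerative programme. The surface receptor TREM2 senses lipids and cell debris and signals through its adaptor TYROBP, and the later part of the programme (Lpl, Cst7, Axl, Spp1 and others) is known to depend on TREM2 in mouse models. Several of these genes are not private to microglia: in the retina Apoe is also made by Müller glia, Spp1 by some ganglion cells, Gpnmb by pigment cells, and Cd9 and Axl by other glia and vessels.

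Of the 10 genes 8 rose after NMDA, none fell, and Apoe and Lpl did not pass the test. Levels are given as CPM, a gene's counts relative to the library's total, scaled between libraries by TMM factors, and differences as log2 fold changes, NMDA minus PBS, from edgeR's quasi-likelihood test over all 16260 tested genes (two-sided, Benjamini-Hochberg adjusted over all of them, threshold 0.05). All 10 passed the filter on low counts. Of all tested genes 37.9% passed, 20.4% higher and 17.5% lower, so rises made up 53.8% of the calls, and 64.5% with library size as the only scaling. Each count of a gene list below is to be read beside the 20.4% and 17.5%. At least 2-fold rises that passed were found for 6 of the 10 genes (Tyrobp, Cst7, Gpnmb, Spp1, Axl and Lgals3), against 4.58% of tested genes. For 5 of them (Tyrobp, Cst7, Spp1, Axl and Lgals3) the lowest NMDA library exceeded the highest PBS library, against 9.43% of tested genes, and for none below, against 8.66%. The median log2 fold change of the 10 was 2.22, beside 0.01 over all tested genes. In these bulk samples more cells of a type and more RNA per cell cannot be told apart.

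**Figure D1:**
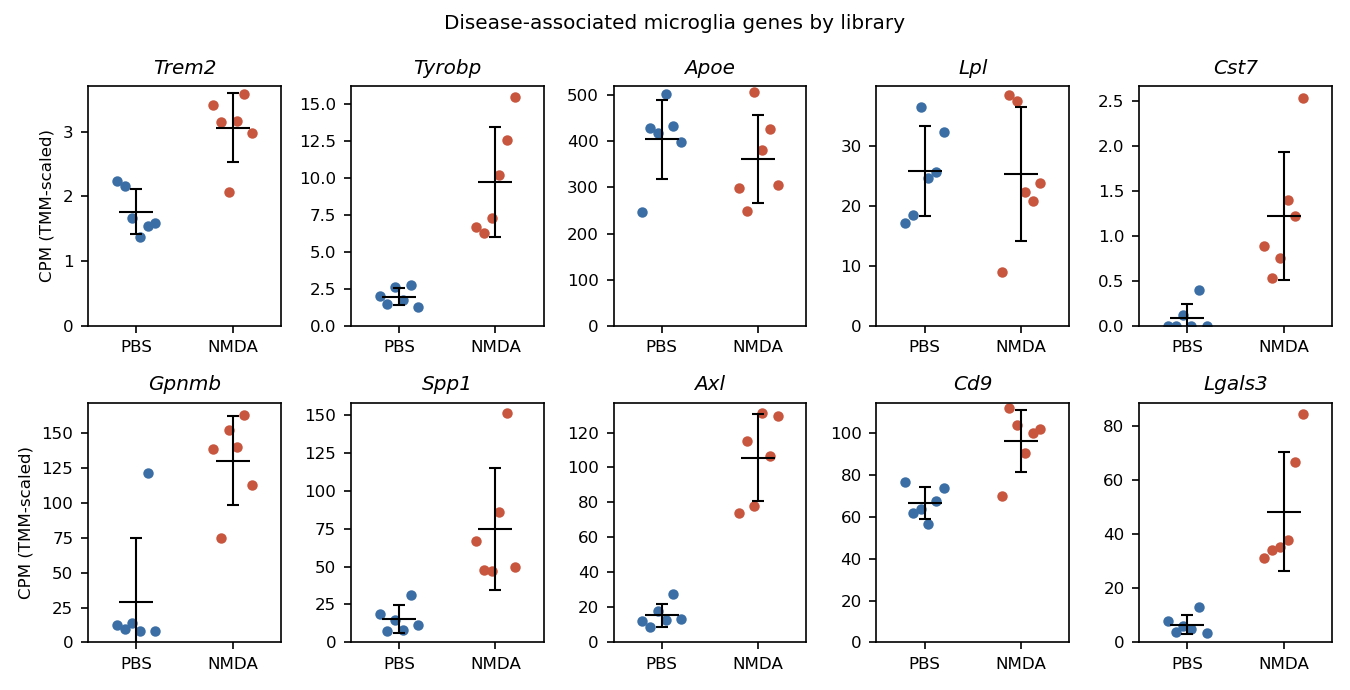
Level of each of the 10 genes in CPM (vertical axes from 0, a scale for each gene) in the 6 PBS and 6 NMDA libraries. Points are libraries and bars the mean with its SD, cut off at 0 for Cst7 and Gpnmb in PBS; Tyrobp, Cst7, Spp1, Axl and Lgals3 show no overlap between groups, and PBS 5 stands at 122 CPM for Gpnmb.

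Total counts ran from 16415611 to 34022023 per library. PBS 5 and NMDA 3 stood apart by some pigment cell genes: the sum of Pmel, Mlana, Tyr and Dct, which serve melanin synthesis, was 346 CPM in PBS 5 and 519.9 in NMDA 3, against 64.1 to 97.2 in the other PBS and 21.9 to 52.6 in the other NMDA libraries. The wider list of pigment epithelium markers did not set PBS 5 apart. Its sum was 464 CPM in PBS 5, within the PBS range of 402 to 474.5 CPM, and 438 CPM in NMDA 3, the highest NMDA value. Rpe65, a pigment epithelium gene, was lowest among PBS libraries in PBS 5, at 7.06 CPM. Lens genes also varied widely between libraries, summing to 487 to 2228 CPM with PBS and 55.7 to 2526 CPM with NMDA. NMDA 1 was the lowest and NMDA 5 the highest, and none of the 7 tested lens genes passed. The bearing of lens RNA on the 10 genes was not tested. The retina's own markers were present, with Glul, the glutamine synthetase gene of Müller glia, at 2528 ± 524 CPM and Rlbp1, a Müller glia retinoid-binding protein gene, at 317 ± 39.9 CPM with PBS (SD, n = 6). Of the microglia markers, Cx3cr1 had 9.27 ± 0.937 CPM and P2ry12 2.32 ± 0.281 CPM with PBS. The labels give each library a rat of its own, and p-values set the difference between the groups against the spread of libraries within each group.

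The receptor and its adaptor rose by different amounts. Trem2 (ENSRNOG00000013578, chromosome 9, 12647259 to 12654170 in the deposited positions, of a genome build that the sources do not name) had a lowest, median and highest level of 1.38, 1.63 and 2.24 CPM with PBS and 2.06, 3.16 and 3.59 CPM with NMDA. The groups overlapped by NMDA 3, the lowest NMDA library, which lay below PBS 1 and PBS 2. The log2 fold change was 0.79 ± 0.17 (SE; edgeR adjusted p = 0.00264), from 27 to 68 counts per PBS library and 71 to 109 per NMDA library. Tyrobp (ENSRNOG00000020845, chromosome 1, 85672994 to 85676848), the membrane adaptor that carries the activation motif for TREM2 and for other myeloid receptors, had 1.26, 1.90 and 2.74 CPM with PBS and 6.27, 8.74 and 15.5 CPM with NMDA. Every NMDA library stood above every PBS library, with NMDA 6 highest, and the log2 fold change was 2.31 ± 0.27 (SE; edgeR adjusted p = 7.96e-05). Per length, Tyrobp was 3.41 to 8.74 times as high as Trem2 in FPKM in the PBS libraries and 9.66 to 25.7 times in the NMDA libraries, so the ratio did not overlap between groups. That ratio was computed after the values were seen and was not tested.

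Trem2 promoter (GRCr8, chr9:20151730-20152029, minus strand, 250 bases before to 50 after the start): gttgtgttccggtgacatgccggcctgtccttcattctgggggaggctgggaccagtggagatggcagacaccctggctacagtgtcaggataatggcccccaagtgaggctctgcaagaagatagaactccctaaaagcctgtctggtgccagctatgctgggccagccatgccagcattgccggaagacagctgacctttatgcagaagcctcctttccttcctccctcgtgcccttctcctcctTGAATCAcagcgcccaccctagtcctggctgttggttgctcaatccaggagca
The window is shown because Trem2 is the receptor at the head of the programme, and it is printed 5′ to 3′ on the gene's strand from RefSeq. Capitals mark the single match to TGANTCA, a pattern bound by AP-1 factors, at bases -3 to 4 from the start. Matches to TGANTCA on either strand were found in 7.33% of 33469 promoter windows of this length. RefSeq held 9 windows for genes of the set, and 3 of them had a match. Those were the windows of Trem2, Cst7 and Gpnmb, which are also the only ones printed here. The windows of Apoe, Spp1, Axl and Cd9 had no match.

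Downstream of the receptor, 13 of 20 tested genes of TREM2 and TYROBP signalling rose, 2 fell and 5 did not pass, with a median log2 fold change of 0.57. Among all tested genes 20.4% rose and 17.5% fell. Vav1, a guanine nucleotide exchange factor gene of blood cells, rose by 2.20, Pik3cg, a phosphoinositide kinase subunit gene of white blood cells, by 1.74, Ptpn6, the phosphatase SHP-1 gene, by 1.55 and Lat2, a membrane scaffold gene, by 1.47 (edgeR adjusted p at most 0.000195 for these 4). Chosen after their values were seen, Syk, the kinase that binds the phosphorylated adaptor, rose by 1.52 (adjusted p = 0.000295) and Spi1, the gene of the myeloid transcription factor PU.1, by 2.13 (adjusted p = 0.000229). Tyrobp lies 131 bases from its neighbour Hcst, a related adaptor gene, which had a mean of 0.174 CPM and was not tested. None of the 10 genes overlapped another gene in the deposited positions.

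Among the lipid genes of the set, neither passed. Apoe (ENSRNOG00000018454, chromosome 1, 79353916 to 79357932), the main lipid carrier protein of the nervous system, had 246, 424 and 503 CPM with PBS and 249, 343 and 507 CPM with NMDA (lowest, median, highest). The groups overlapped over nearly their whole range, and the log2 fold change was -0.16 ± 0.19 (SE; edgeR adjusted p = 0.545). Müller glia markers moved beside it: 6 of 11 tested fell and 3 rose, with a median of -0.51, and their summed level was 5036 to 6679 CPM with PBS and 4058 to 4949 CPM with NMDA. Glul fell by 1.05 and Rlbp1, which pigment epithelium also uses, by 1.14 on the log2 scale. Vim, the intermediate filament gene vimentin, which other cell types share, rose from 317 ± 74.1 to 874 ± 152 CPM (SD, n = 6; log2 fold change 1.46), the smallest adjusted p of the list. Of 9 tested pigment epithelium markers 5 fell and none rose. The part of Müller glia RNA in the Apoe value was not tested.

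Lpl (ENSRNOG00000012181, chromosome 16, 20829465 to 20855249), lipoprotein lipase, which releases fatty acids from triglyceride-rich particles, had 17.1, 25.1 and 36.5 CPM with PBS and 8.93, 23.1 and 38.5 CPM with NMDA. NMDA 1 was the lowest of all 12 libraries, and NMDA 2 and NMDA 3 were the highest. Its log2 fold change was -0.02 ± 0.31 (SE; edgeR adjusted p = 0.969), and it was 0.14 without NMDA 1 and -0.18 without NMDA 2, neither of which passed.

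The genes that handle the same lipids were mixed: 9 of 20 tested rose, 2 fell and 9 did not pass, with a median of 0.17. Plin2, the lipid droplet coat gene, rose from 11.9 ± 1.74 to 67.8 ± 18.0 CPM (SD, n = 6; log2 fold change 2.51, edgeR adjusted p = 5.04e-06). Abca1, which exports cholesterol to apolipoproteins, rose by 1.59 and Msr1, a scavenger receptor gene for modified lipoproteins, by 4.09. Pltp, the phospholipid transfer protein gene, fell by 0.69 on the log2 scale (adjusted p = 0.000101).

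Cst7 and Gpnmb, genes of the lysosome, were nearly silent or low in most PBS retinas. Cst7 (ENSRNOG00000006767, chromosome 3, 139396850 to 139405557), cystatin F, an inhibitor of lysosomal cathepsins, had no count in 4 of 6 PBS libraries, 2 counts in PBS 3 and 10 in PBS 5. A count of 0 allows a level of up to 0.118 CPM (3 counts, counting error only). The NMDA libraries held 15 to 73 counts, 0.532, 1.05 and 2.53 CPM as lowest, median and highest, all above the highest PBS value of 0.397 CPM. The log2 fold change was 3.85 ± 0.78 (SE; edgeR adjusted p = 0.00206), rising to 5.88 without PBS 5. Of all tested genes 19 had a larger rise.

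Cst7 promoter (GRCr8, chr3:159857030-159857329, plus strand, same window): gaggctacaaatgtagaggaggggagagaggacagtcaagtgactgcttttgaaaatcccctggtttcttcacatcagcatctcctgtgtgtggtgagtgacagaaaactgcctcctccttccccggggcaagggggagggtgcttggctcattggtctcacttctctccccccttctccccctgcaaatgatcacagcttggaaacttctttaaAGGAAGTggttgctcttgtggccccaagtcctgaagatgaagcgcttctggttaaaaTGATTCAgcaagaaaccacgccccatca
The window is shown because Cst7 had the largest log2 fold change of the 10 genes. Capitals mark AGGAAGT, a pattern bound by PU.1 and other ETS factors, at bases -35 to -29, and TGANTCA at bases 23 to 29. AGGAAGT was found on either strand in 8.41% of the 33469 windows, and it contains the ETS core GGAA, which was found in 95.8%.

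Cathepsins and cystatins, the proteases and inhibitors around cystatin F, rose in 7 of 14 tested genes and fell in 3, with a median of 0.27. Of all tested genes 20.4% rose and 17.5% fell. Ctsz rose by 1.72, Ctsc, the target protease of cystatin F, by 1.57, Cstb, the cystatin B gene, by 0.64 and Ctsb by 0.54 (edgeR adjusted p at most 0.000489 for these 4).

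Gpnmb (ENSRNOG00000008816, chromosome 4, 78010197 to 78049367), a glycoprotein of lysosomes and melanosomes, had 8.27, 10.9 and 122 CPM with PBS and 74.9, 139 and 163 CPM with NMDA. In PBS 5 it was 12.6 times the median of the other PBS libraries, and that library lay above NMDA 2 and NMDA 6. The log2 fold change was 2.16 ± 0.70 (SE; edgeR adjusted p = 0.0308). Leaving out PBS 5 raised it to 3.63, and leaving out PBS 5 and NMDA 3 together gave 3.58 (edgeR adjusted p = 1.05e-05). The call ended when any of PBS 1, PBS 2, PBS 3, PBS 4, PBS 6, NMDA 4 or NMDA 5 was left out (log2 fold change 1.97 to 2.14, highest adjusted p = 0.0602).

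PBS 5 was also the PBS library with the most RNA of Pmel, Mlana, Tyr and Dct, the pigment genes meant here, though not of all pigment epithelium markers. High Gpnmb in NMDA libraries came with both high and low pigment gene RNA. NMDA 1 had the least pigment gene RNA of all libraries, 21.9 CPM, and 138 CPM of Gpnmb, while the 5 PBS libraries with 64.1 to 97.2 CPM of pigment genes had 8.27 to 14.2 CPM of Gpnmb. Mitf, the pigment cell and macrophage transcription factor gene that is known to drive Gpnmb, had 11.4 ± 3.03 CPM with PBS and 12.8 ± 5.16 CPM with NMDA (SD, n = 6; log2 fold change 0.17, edgeR adjusted p = 0.613). Of 8 tested genes of the MITF and TFE family and their melanocyte targets, Gpnmb alone passed. The part of pigment cells in the PBS 5 value was not tested.

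**Figure D2:**
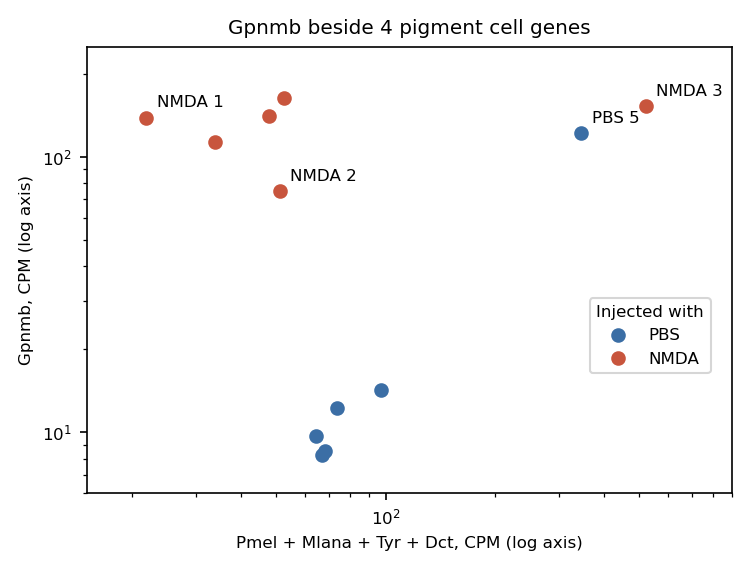
Gpnmb in CPM (vertical, log axis) against the sum of the pigment genes Pmel, Mlana, Tyr and Dct in CPM (horizontal, log axis), 1 point per library. PBS 5 and NMDA 3 lie to the right at 346 and 519.9 CPM of pigment genes; the other NMDA libraries lie at 74.9 to 163 CPM of Gpnmb with 21.9 to 52.6 CPM of pigment genes.

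Gpnmb promoter (GRCr8, chr4:79340878-79341177, plus strand, same window): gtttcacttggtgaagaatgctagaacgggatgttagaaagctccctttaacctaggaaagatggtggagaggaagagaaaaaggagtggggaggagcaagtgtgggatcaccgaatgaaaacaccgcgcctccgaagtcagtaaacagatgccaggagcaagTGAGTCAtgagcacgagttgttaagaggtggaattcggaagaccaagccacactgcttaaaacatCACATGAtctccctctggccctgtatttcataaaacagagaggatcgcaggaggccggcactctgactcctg
The window is shown because Gpnmb is a known target of MITF. Capitals mark TGANTCA at bases -87 to -81 and, as CACATGA on the printed strand, the reverse complement of TCATGTG, the M-box bound by MITF, at bases -22 to -16. TCATGTG was found on either strand in 3.56% of the 33469 windows. Of the 9 windows of the 10 genes 2 had it, this one and a window of Apoe, which did not pass, at bases -41 to -35. The E-box CACGTG, found in 6.42%, had no match in any of the 9 windows that RefSeq held for 7 of the 10 genes (Trem2, Apoe, Cst7, Gpnmb, Spp1, Axl and Cd9).

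The secreted ligands of the set, osteopontin and galectin-3, both rose. Spp1 (ENSRNOG00000043451, chromosome 14, 5308885 to 5315162), osteopontin, a matrix protein that binds integrins and CD44 and marks phagocytosing cells, had 7.84, 13.2 and 31.5 CPM with PBS and 47.2, 58.2 and 151 CPM with NMDA. All NMDA libraries lay above PBS 5, the highest PBS library, and NMDA 5 stood apart at the top. The log2 fold change was 2.28 ± 0.42 (SE; edgeR adjusted p = 0.00142) and 1.95 without NMDA 5. Ganglion cell markers, of cells that also make Spp1, fell in 7 of 8 tested genes, with a summed level of 683 to 822 CPM with PBS and 161 to 469.5 CPM with NMDA. Among genes of osteopontin receptors, 6 of 9 tested rose and 1 fell (median 0.77): Itga4 rose by 1.42, Cd44 by 1.21, Itga5 by 0.95 and Itgb1 by 0.77.

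Lgals3 (ENSRNOG00000010645, chromosome 15, 20607692 to 20632025), galectin-3, a sugar-binding protein of activated phagocytes that also binds TREM2, had 3.54, 5.48 and 12.97 CPM with PBS and 31.3, 36.7 and 84.8 CPM with NMDA. The groups did not overlap: 4 NMDA libraries lay between 31.3 and 38.0 CPM, and NMDA 5 and NMDA 6 lay above them at 66.8 and 84.8. Its log2 fold change was 2.89 ± 0.38 (SE; edgeR adjusted p = 0.000215). Of 7 tested genes of the galectin family and its binding protein, Lgals3bp rose by 1.60 and Lgals9 by 1.10, Lgalsl fell by 0.30 on the log2 scale, and 4 did not pass. These few calls are near the shares of all tested genes, 20.4% higher and 17.5% lower.

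The receptor Axl and the tetraspanin Cd9 stood at opposite ends of the rises at the cell surface. Axl (ENSRNOG00000020716, chromosome 1, 81265088 to 81296265), a receptor tyrosine kinase for the clearance of dying cells, had 8.86, 13.1 and 27.7 CPM with PBS and 73.9, 111 and 131 CPM with NMDA. All NMDA libraries were above all PBS libraries, and the log2 fold change was 2.78 ± 0.27 (SE; edgeR adjusted p = 3.53e-05), the smallest adjusted p of the 10 genes. Its family had smaller fold changes, a difference that was not tested: Mertk rose by 0.31 and Tyro3 by 0.28, and the ligand gene Gas6 fell from 212 ± 11.8 to 181 ± 15.9 CPM (SD, n = 6; log2 fold change -0.23, edgeR adjusted p = 0.00818). Tyro3 lost its call without PBS 2, NMDA 2 or NMDA 4 (log2 fold change 0.24, highest edgeR adjusted p = 0.0508). Of 7 tested partners 4 rose and 1 fell, and Socs3, a suppressor of cytokine signalling, had the largest rise among them, 2.82.

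Cd9 (ENSRNOG00000019556, chromosome 4, 158256328 to 158289222), a tetraspanin that organises membrane proteins, had 56.6, 65.7 and 76.8 CPM with PBS and 69.8, 101 and 112 CPM with NMDA. NMDA 1 lay within the PBS range, and the other NMDA libraries lay above it. Its log2 fold change was 0.53 ± 0.11 (SE; edgeR adjusted p = 0.00197). Of 12 tested genes of tetraspanins and their partners 6 rose and 3 fell (median 0.27), beside 20.4% and 17.5% of all tested genes. Cd53, of white blood cells, rose by 2.21, Cd63, of lysosomes, by 1.89, Cd82 by 0.92 and Cd151 by 0.61. Of 9 tested endothelial and pericyte markers 4 rose and 1 fell (median 0.47), and the part of vessels in the values of Axl and Cd9 was not tested.

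The library with the highest level differed between genes. PBS 5 was the highest PBS library for 6 of the 10 genes (Tyrobp, Cst7, Gpnmb, Spp1, Axl and Lgals3). NMDA 6 was the highest NMDA library for Tyrobp, Cst7 and Lgals3, NMDA 5 for Trem2, Gpnmb and Spp1, NMDA 2 for Lpl and Cd9, NMDA 3 for Apoe and NMDA 4 for Axl. NMDA 1 and NMDA 2 were each the lowest NMDA library for 4 genes.

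Monocyte and neutrophil markers, 14 genes, had a summed level of 58.4 to 102 CPM with PBS and 89.2 to 528 CPM with NMDA, highest in NMDA 6, and 10 of 13 tested rose, with a median of 2.29. A large part of that sum was Fn1, the fibronectin gene, at 63.4 CPM in NMDA 1, the lowest NMDA library, and 283 CPM in NMDA 6, the highest. Fn1 had 26.4 ± 4.63 CPM with PBS (SD, n = 6), and which cells its RNA came from was not tested. Ly6c, a monocyte surface antigen gene, rose by 3.63 and was highest in NMDA 4. Without NMDA 6 the log2 fold change was 2.13 for Tyrobp, 3.50 for Cst7 and 2.66 for Lgals3, and all 3 passed. T cell markers summed to 0.70 to 2.54 CPM with PBS and 3.01 to 8.14 CPM with NMDA, highest in NMDA 4, and 2 of 3 tested rose. Cd8a rose by 5.19 and Cd3e by 2.01, and Lck did not pass (0.63, edgeR adjusted p = 0.0891). The markers differed between libraries: NMDA 1 had the highest Cd8a, 4.79 CPM, and the lowest Cd3e of the NMDA libraries, 0.19 CPM. Monocyte-derived cells and resident microglia both use most of the 10 genes, and their shares were not tested.

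**Figure D3:**
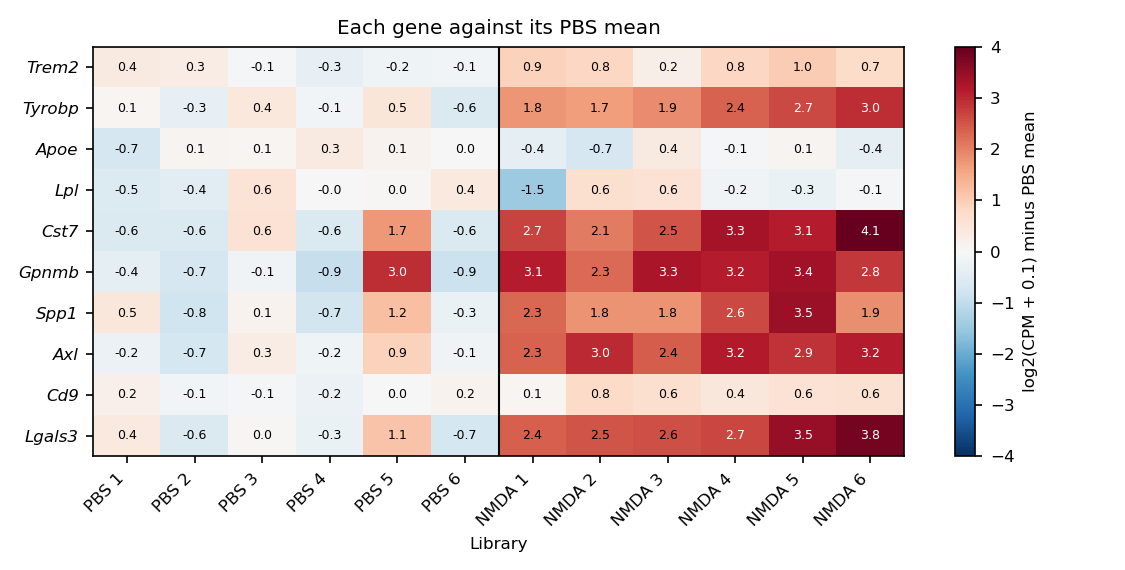
Level of each gene (rows) in each library (columns) as log2(CPM + 0.1) minus the mean of the 6 PBS libraries, printed in each cell and coloured from -4 to 4. The 6 NMDA columns are raised for Tyrobp, Cst7, Gpnmb, Spp1, Axl and Lgals3, the PBS 5 column is raised for Gpnmb by 2.95, and Apoe and Lpl show both signs.

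General microglia and macrophage genes rose too, so each of the 10 genes was also measured against them within the same library. The reference was the mean log2 CPM of Aif1, Csf1r, Cx3cr1, Itgam, C1qa, C1qb, C1qc and Laptm5, all 8 of which rose (median 1.10). It was 1.12 higher on the log2 scale with NMDA, and Itgam, an integrin gene shared with neutrophils and monocytes, rose most among its named genes (2.00, against 1.24 for Aif1, 1.16 for Cx3cr1 and 0.76 for Csf1r). Relative to it, 6 of the 10 genes were higher with NMDA (limma, two-sided, adjusted over all tested genes), against 1.7% of tested genes, and 3 were lower, against 89.7%. Among the 20 tested genes of TREM2 and TYROBP signalling, 5 were higher and 10 lower relative to it. Vav1 (1.00) and Pik3cg (0.55) were higher, and Ptpn6 (0.39) and Lat2 (0.31) did not pass.

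Lgals3 rose beyond the reference by 1.79 (95% interval 1.34 to 2.25), Axl by 1.71 (1.27 to 2.15), Cst7 by 2.17 (1.43 to 2.91), Gpnmb by 1.89 (0.73 to 3.05), Spp1 by 1.19 (0.74 to 1.63) and Tyrobp by 1.11 (0.60 to 1.61), with limma adjusted p of at most 0.00533. On this measure Gpnmb in PBS 5 stood at 3.47, above every NMDA library (2.23 to 3.27). The other PBS libraries ran from 0.27 to 0.59. The limma fit draws each gene's spread towards that of all genes, so intervals can be too narrow for genes that vary more. Spp1 had an SE of 0.226, while its SD relative to the reference was 0.47 with PBS and 0.63 with NMDA. With Cx3cr1 alone as the reference all 6 still passed, with a highest limma adjusted p of 0.0116 (Gpnmb) and 0.00889 for Spp1. The Cst7 value rests on the prior count added to its 0 counts in 4 PBS libraries: it was 2.17 with a prior count of 2 and 3.53 with 0.5, outside the interval given. Apoe (-1.29), Lpl (-1.24) and Cd9 (-0.60) were lower relative to the reference, as most genes of the retina were. Trem2 differed from the reference by -0.35 with an interval of -0.90 to 0.20 (limma adjusted p = 0.22), which does not show that it moved with it. Against a reference of the 15 tested genes of the resting microglia list, Trem2 and Cd9 turned to higher (0.60 and 0.35), Apoe and Lpl no longer passed, and the other 6 stayed higher. That list includes genes that other cells use, such as Mef2c and Tgfbr1, so it is not a measure of microglia alone. Its summed level was 1230 to 1398 CPM with PBS, against 65.9 to 103 CPM for the 8 reference genes. Relative to those 8, 13 of its 15 tested genes were lower.

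**Figure D4:**
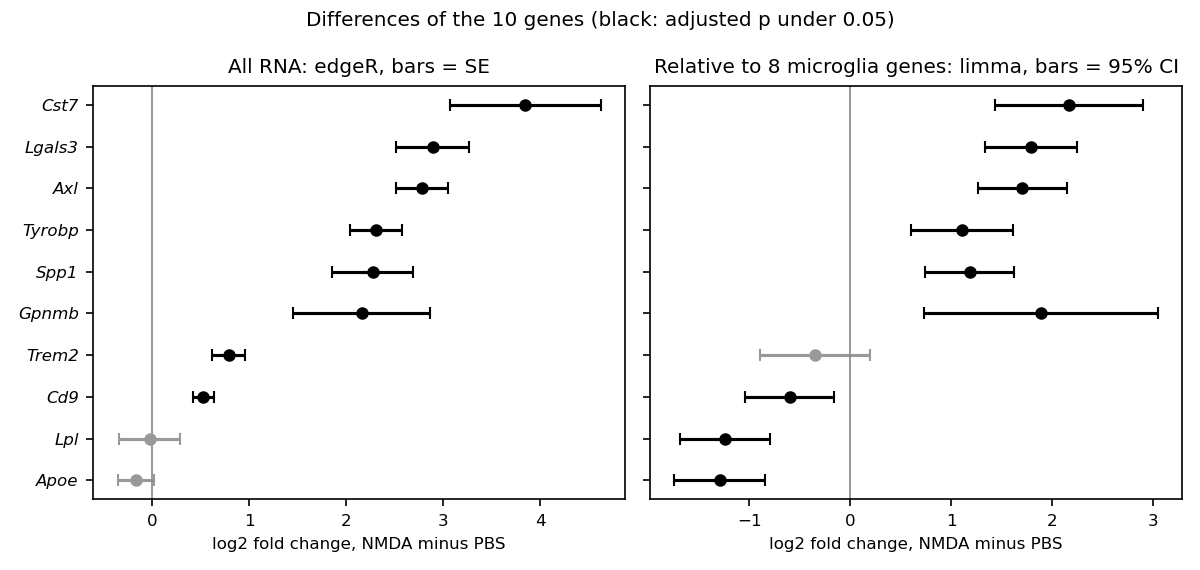
Differences of the 10 genes on the log2 scale, NMDA minus PBS: left, edgeR fold changes with SE; right, differences relative to 8 microglia genes with 95% intervals (limma). Black points passed the adjusted threshold, and on the right Trem2 is grey at -0.35. With the resting microglia list as the reference, which includes genes that other cells use, Trem2 lay at 0.60 and passed, and Cd9 at 0.35.

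Of 15 tested resting microglia genes 3 rose, 3 fell and 9 did not pass, with a median of 0.20, shares near the 20.4% and 17.5% of all tested genes. Cx3cr1 and Csf1r rose, as did Tgfbr1, a TGF-beta receptor gene that many cells use (0.29), and P2ry12, the purine receptor gene of resting microglia, fell by 0.52 on the log2 scale (edgeR adjusted p = 0.0178). Mef2c, a transcription factor gene that neurons also use, fell by 0.37. Other genes of the disease-associated programme, outside the 10, rose in 19 of 28 tested and fell in 2, with a median of 0.56. Cd63 rose from 87.7 ± 17.0 to 326 ± 67.1 CPM (SD, n = 6; log2 fold change 1.89, edgeR adjusted p = 1.53e-05), Ch25h, a cholesterol hydroxylase gene, by 2.43, B2m, the class I light chain gene, by 1.68 and Ctsb by 0.54. Relative to the 8 reference genes, 11 of these 28 were higher and 15 lower, against 1.7% and 89.7% of tested genes. Ch25h (1.27), Cd63 (0.77) and B2m (0.58) were higher, and Ctsb was lower (-0.59, limma adjusted p = 0.0119).

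**Figure D5:**
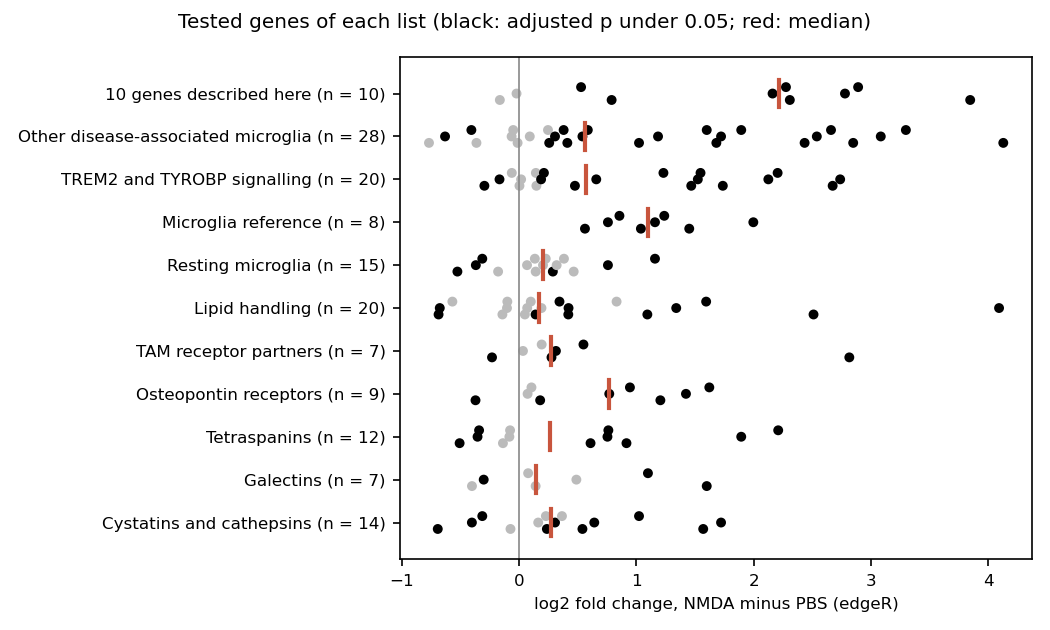
Log2 fold changes (edgeR, NMDA minus PBS, horizontal) of the tested genes of 11 lists, 1 point per gene, black where the adjusted p was under 0.05, with the list's median in red. The medians are 2.22 for the 10 genes, 0.56 for other disease-associated genes and 0.20 for resting microglia; some genes stand in several lists.

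Per length, the order of the 10 genes changed between the groups. With PBS, Apoe was highest at 87.3 ± 18.7 FPKM (SD, n = 6), followed by Cd9 at 16.02 ± 1.76, and Trem2 and Cst7 closed the order at 0.663 ± 0.130 and 0.0451 ± 0.0832 FPKM. From Cd9 to Axl each gene overlapped the next in the order Cd9, Gpnmb, Lpl, Spp1, Tyrobp, Lgals3, Axl. With NMDA, Apoe stayed highest at 80.7 ± 21.5 FPKM, and Gpnmb came next at 39.7 ± 9.79 followed by Spp1 at 29.0 ± 15.96. From Gpnmb to Axl each gene overlapped the next in the order Gpnmb, Spp1, Cd9, Tyrobp, Lgals3, Axl. Lpl came after them at 6.998 ± 3.08 FPKM, and Trem2 at 1.19 ± 0.210 overlapped Cst7 at 0.655 ± 0.390.

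The genes most like Trem2 and Lgals3 were sought by the mean absolute difference of log2 CPM from each gene's PBS mean over the 12 libraries, among 12443 genes. For Trem2 they were Rps4x, Eif5a, Rpl28, Ildr2 and Rps15, at differences of 0.15 to 0.17, genes of ribosomal proteins, a translation factor and a membrane protein with log2 fold changes of 0.70 to 0.76. For Lgals3 they were Hmox1, Ugt1a3, Ptprc, Nlrc5 and Pdpn, at 0.28 to 0.30, with log2 fold changes of 2.49 to 2.87. Hmox1 is the haem oxygenase gene, Ptprc the common surface antigen gene of white blood cells, and Pdpn the podoplanin gene. Ribosomal protein genes and Ugt1a3 have near-identical copies, so their values are uncertain.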

How the data were processed

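Total RNA of 12 rat retinas, 6 per group, was analysed from 1 deposited gene table. The authors deposited whole read counts per gene and, beside them, FPKM values (scaled by gene length and library total), per the file headers. Bowtie2, RSEM 1.3.1 and DESeq2 1.4.5 are named in the submitters' processing notes, without roles; how strand and multiply matching reads were treated, and on which genome build, is not given in the sources used here, so values of near-identical copies such as ribosomal protein genes are uncertain. The members and all gene lists were chosen with earlier results of these data known, and no list was tested as a set.

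Counts were filtered with edgeR 4.0.16 filterByExpr (count minimum 10, total minimum 15), scaled with TMM (factors 0.976 to 1.03) and tested with a robust quasi-likelihood fit with group as the only term (R 4.3.3). The SE of a log2 fold change is its size divided by the square root of the F statistic. Levels relative to microglia reference genes used log2 CPM (prior count 2) and limma 3.58.1 with a trend. The fits were tested on simulated counts with few changed genes, the same dispersion for all genes and reference genes that did not change. Those settings differ from these data, so that run does not show how the fit behaves where its reference rises. Named genes were the 10 members, up to 4 genes of smallest adjusted p from each list, Aif1, Cx3cr1, P2ry12 and the 5 most like Trem2 and Lgals3 above a mean log2 CPM floor of 1; Syk, Spi1 and Hcst were named outside this rule, after their values were seen, as were single genes of summed lists. Promoter windows came from RefSeq (GRCr8). No protein sequence was used here, and not every gene that the naming rule selects is described. Alternatives changed the scaling, filter, test, unit, reference genes and prior count, added the replicate number as a block, or left out libraries. Precision rests on 16415611 to 34022023 counts per library.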

Additional observations from a re-analysis of the deposited data

Results flagged for a closer look

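In groups of 6, a library was singled out where its gap to the nearest other library, over the range of the group, exceeded Dixon's 95% critical value. Of 126 groups checked (10 member genes and 53 of the other named genes) 12 stood apart. Chance alone gives about 1 in 20. Among the members these were Gpnmb in PBS 5 (122 CPM, next 14.2), Cst7 in PBS 5 (0.397 CPM, next 0.124, which is 2 counts) and Spp1 in NMDA 5 (151 CPM, next 86.0). PBS 5 also stood highest among PBS libraries for Ptpn6 (7.06 CPM), Vav1 (2.42), Lgals3bp (37.6), Lgals9 (8.73), Ugt1a3 (5.44) and Mitf (17.3 CPM). Mitf stood highest in NMDA 3 as well, at 23.0 CPM. Ildr2 stood lowest in PBS 6 at 34.7 CPM, and Vim lowest in NMDA 1 at 583 CPM (next 856).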

How the results depend on the processing

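The count of member genes that rose was 8 under DESeq2 size factors, library size only, DESeq2, limma voom and both FPKM scales, 7 without a filter, and 5 with at least 10 CPM in 6 libraries, where Trem2, Tyrobp and Cst7 were not tested. Gpnmb was the 1 member whose call was lost: without a filter its log2 fold change was 2.16 (edgeR adjusted p = 0.0553), and leaving out each library in turn gave 1.97 to 3.63, highest without PBS 5, with 7 of 12 below the threshold of significance. The other 7 rises kept their calls in every one of these 12 fits. With the genes of resting microglia as the reference, the differences of Trem2 and Cd9 became 0.60 and 0.35 and passed, and those of Apoe and Lpl became -0.34 and -0.29 and did not; the 15 genes of that reference had a median of 0.20 in place of 1.10. The resting microglia list includes genes that other cells use, such as Mef2c and Tgfbr1. The reference's own noise is shared by all genes measured against it. Changed genes over the whole table numbered 4565 to 7090 across all alternatives.

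All tested genes had a median difference of 0.01 with TMM and 0.06 with library size only; rises were 64.5% of the calls with the latter and 64.0% on log2(FPKM + 1), against 53.8% with TMM. Correlations of the deviations of equally numbered libraries ran from -0.19 to 0.15. They cannot decide whether equal numbers mark a shared litter, day or batch, and the labels do not say. With the replicate number as a block 5593 genes changed and all 8 member rises stayed called, Gpnmb at 3.06. Among the 53 other genes checked, Tyro3 lost its call with the block (0.28) and without PBS 2, NMDA 2 or NMDA 4. Low depth limits Cst7 most, with at most 73 counts per library.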
